A study of Homo sapiens with 5 samples.

Results

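NRF2, encoded by NFE2L2, is the transcription factor that switches on the cell's antioxidant and detoxification enzymes, and this account follows it through 10 genes: NFE2L2, its inhibitor KEAP1, and the enzymes and transporter HMOX1, NQO1, GCLC, GCLM, SLC7A11, TXNRD1, ME1 and TALDO1. The genes were chosen by symbol, and all probe sets that the platform's table assigns to a chosen gene alone were taken, 23 of the 54675 probe sets on the array. The 10 genes stand among 19775 genes with such a probe set. A further probe set that the table assigns to NFE2L2 together with another gene was left out. The study measured RNA of 3 related lines of human renal cell carcinoma on 5 Affymetrix arrays, as a log2 signal for each probe set. SN12C, the parental line, called non-metastatic in the labels, had 2 biological replicates. LM1, the lung-metastatic line of generation 1, had 1 array. LM2, the lung-metastatic line of generation 2, had 2 biological replicates. The sources used here give no treatment for any line, nor how LM1 and LM2 were derived or whether they are clones.

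In unstressed cells KEAP1 holds NRF2 and hands it to the CUL3 ubiquitin ligase for destruction. Oxidants and electrophiles modify cysteines of KEAP1, NRF2 then accumulates, pairs with a small MAF protein and binds antioxidant response elements near its target genes. Because NRF2 is controlled mainly through the stability of the protein, the NFE2L2 transcript is not a measure of NRF2 activity. In kidney cancer the pathway is known chiefly from papillary tumours, some of which carry an active form of it.

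In LM2, HMOX1 had the largest difference from SN12C of the 10 genes, at -2.42 ± 0.50 log2 units (SE). On the brightest probe set of each, NFE2L2, ME1, GCLM, SLC7A11 and TXNRD1 were also lower on both LM2 arrays than on both SN12C arrays. The difference was small for TXNRD1, at -0.19, and for SLC7A11 against SN12C replicate 2, at -0.20. TALDO1 and GCLC were higher on both LM2 arrays, by 0.44 ± 0.16 and 0.41 ± 0.20 log2 units (SE). In the limma test 0 of the 10 genes passed an adjusted p of 0.05, and over all genes tested the share called was 0% (lowest adjusted p = 0.225). At an unadjusted p under 0.05 there were 3 of the 10, HMOX1, NFE2L2 and ME1, all lower in LM2, where 11.6% of the 15024 genes tested had such a p and 4.6% were lower with such a p. The median difference of the 10 genes was -0.30, against 0.03 over all genes tested, and it was -0.20 without SN12C replicate 1 and -0.15 without SN12C replicate 2. The arrays of LM2 and SN12C did not overlap for 8 of the 10 genes, 6 lower and 2 higher, where 39.4% of all genes tested did not overlap, 14.1% lower and 25.3% higher. With 2 arrays on each side the smallest two-sided p that exact permutation allows is 0.333. On the level of probe sets, 6 of the 21 tested were lower at an unadjusted p under 0.05, where 4.18% of all probe sets tested were. The 6 belonged to HMOX1, NFE2L2, ME1 and GCLM. Of the 21, 11 lay lower and 3 higher without overlap, where 13.4% and 25.3% of all did. Several of these probe sets read the same gene on the same arrays, so they are not independent of each other.

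**Figure D1:**
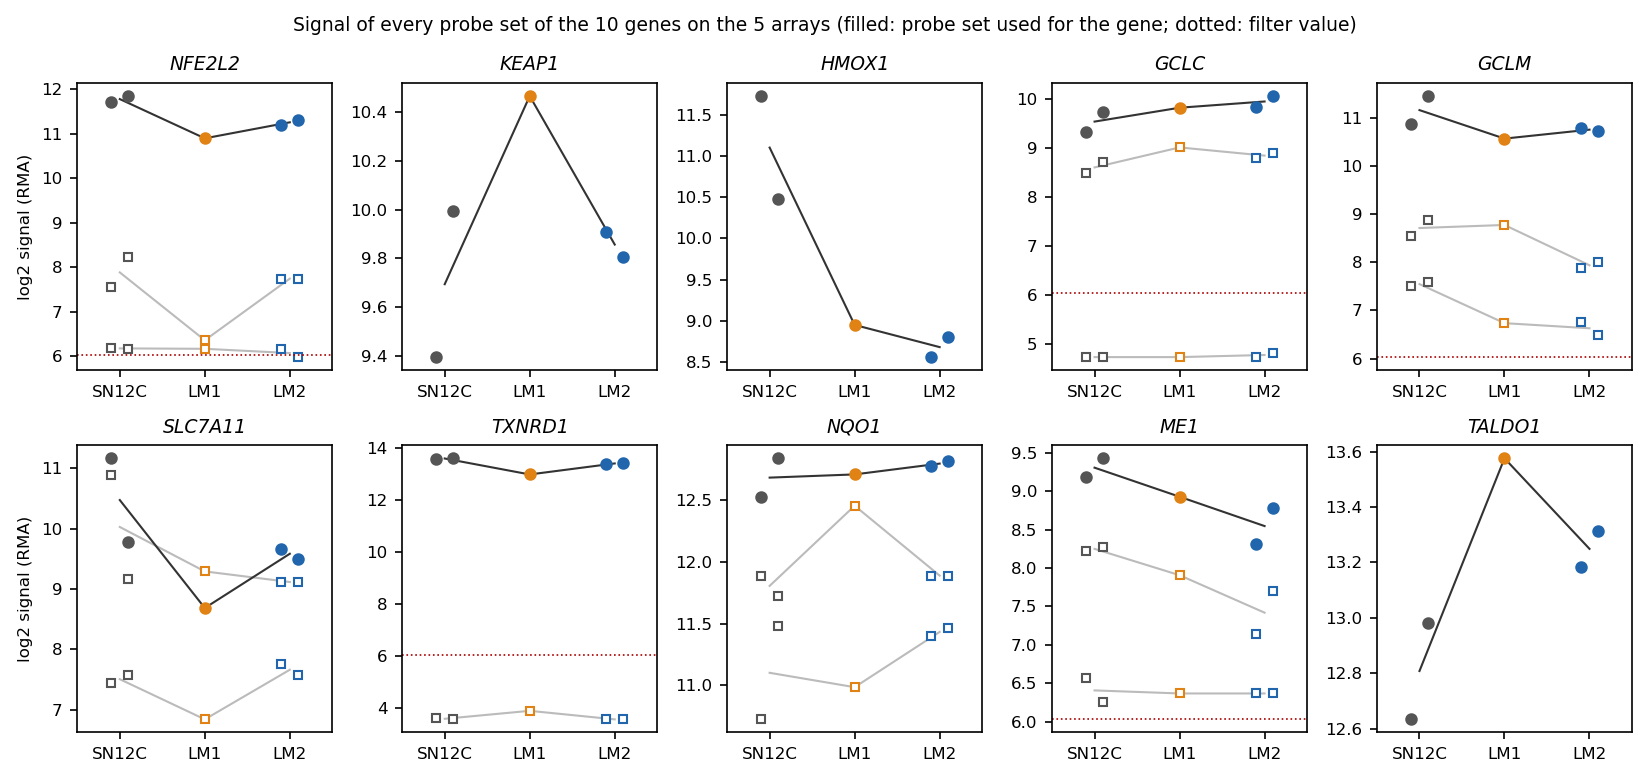
Log2 signal of each probe set on the 5 arrays, a panel per gene with its own vertical axis, lines in the order SN12C, LM1 and LM2. Filled circles are the probe set used for the gene, open squares its other probe sets, lines join the means of each cell line, and the dotted line is the filter value of 6.03 where it lies in range. HMOX1 read 8.56 and 8.81 in LM2 and 11.72 and 10.48 in SN12C, and GCLM was lower in LM2 in all 3 of its probe sets.

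The arrays differ in ways that bear on these values. Over the genes tested the median distance between replicates was 0.07 log2 units for LM2 and 0.28 for SN12C, and for the 10 genes it was 0.12 and 0.38. SN12C replicate 2 correlated more closely with the LM2 arrays (r = 0.9889 and 0.9905 across genes, which are not independent replicates) than with SN12C replicate 1 (r = 0.9837). For beta-actin the 3' minus 5' difference in signal was 3.43 log2 units in LM1, while the other arrays had 0.07 to 0.47. For GAPDH it was 2.09 in LM1 and -0.07 to 0.14 on the other arrays. For 7 of the 23 probe sets at least a pair of arrays had the same deposited value. All 7 measured markers of renal carcinoma lines, among them PAX8, VIM and KRT18, reached the filter value on every array. Of 17 markers of other cell types 11 reached it on every array and 5 on none, namely PTPRC, LYZ, CDH5, SCGB1A1 and LUM. Summed on the linear scale, 4 lung epithelial markers read 674.3 and 668.3 in LM2, against 985.6 and 643.1 in SN12C, so SN12C replicate 1 was higher there. The sums of the leukocyte markers were 259.5 and 284.5 in LM2, against 284.3 and 303.6 in SN12C. The endothelial markers summed to 307.0 and 315.9 in LM2, against 365.3 and 326.4 in SN12C. Fibroblast markers summed to 289.8 and 271.2 in LM2, against 293.2 and 257.2 in SN12C, and erythroid markers to 250.7 and 259.1 in LM2, against 305.9 and 261.5 in SN12C. Their part in the results was not tested. For bulk RNA, fewer cells that carry a transcript and less transcript per cell cannot be told apart.

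The core of the antioxidant response element, TGACNNNGC, was searched on both strands in the 250 bases before the start of each gene in RefSeq's promoter windows (GRCh38.p14), since it is the sequence through which NRF2 acts. Of the 10 genes 8 matched the table, and HMOX1 and SLC7A11 did not. The core was found in 4 of the 8, GCLM, KEAP1, ME1 and TXNRD1, where 13.2% of all 27305 genes in the table hold it, and in 5 of their 11 windows, where 10.9% of all windows do. A core farther from the start would be missed. The genes were chosen for this pathway, and the share was not tested. The stretches that hold it are printed 5′ to 3′ on the gene's strand with the core in capitals, to show what the matched genes share. A capital run that starts with GC is the core on the opposite strand.
GCLM, chr1:93909431-93909504, minus strand: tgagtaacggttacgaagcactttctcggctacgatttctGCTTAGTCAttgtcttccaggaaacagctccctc
KEAP1, chr19:10502772-10502865, minus strand: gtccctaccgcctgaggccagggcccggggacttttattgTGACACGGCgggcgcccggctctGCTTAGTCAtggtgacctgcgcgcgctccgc
ME1, chr6:83431140-83431228, minus strand: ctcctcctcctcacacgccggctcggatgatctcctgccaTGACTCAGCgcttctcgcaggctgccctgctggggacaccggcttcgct
TXNRD1, upstream start, chr12:104215640-104215728, plus strand: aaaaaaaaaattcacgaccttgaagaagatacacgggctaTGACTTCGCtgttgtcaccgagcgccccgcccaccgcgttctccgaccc
TXNRD1, downstream start, chr12:104286890-104286978, plus strand: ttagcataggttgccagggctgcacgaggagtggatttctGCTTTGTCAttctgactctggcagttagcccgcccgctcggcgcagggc
GCLM and KEAP1 hold the same core, TGACTAAGC, its first printed base 34 bases before the start of GCLM and 31 bases before that of KEAP1, and KEAP1 holds a second one 54 bases before. In ME1 the core TGACTCAGC begins 137 bases before the start. A match describes these letters only: GCLM, ME1 and, by a small difference, TXNRD1 were lower in LM2, whereas the LM2 and SN12C arrays overlapped for KEAP1.

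Of the regulators, NFE2L2 had a lower signal in both metastatic lines. Its brightest probe set read 11.20 and 11.31 on the LM2 arrays, against 11.71 and 11.84 on the SN12C arrays. Both LM2 arrays lay below both SN12C arrays, by more than either pair differed within itself. The difference was -0.52 ± 0.10 log2 units (SE; limma adjusted p = 0.289), and it was -0.45 against SN12C replicate 1 alone and -0.59 against replicate 2 alone. The LM1 array read 10.89, lower than all 4 others, a difference of -0.88 ± 0.12 from SN12C (limma adjusted p = 0.101). LM2 stood 0.36 ± 0.12 above LM1 (limma adjusted p = 0.293).

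The other NFE2L2 probe sets were dimmer and did not follow it throughout. One read 7.74 on both LM2 arrays, against 7.55 and 8.22 in SN12C, so the lines overlapped. The LM1 array read 6.36 there, 1.52 log2 units below the SN12C mean. The other read 6.16 and 5.98 in LM2 and 6.19 and 6.17 in SN12C, close to the filter value.

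KEAP1, the adaptor that marks NRF2 for degradation, read 9.91 and 9.81 on the LM2 arrays, against 9.39 and 9.99 on the SN12C arrays. The groups overlapped, and the difference of 0.16 ± 0.25 log2 units (SE) did not pass (limma adjusted p = 0.761). It was -0.0135 after quantile normalization and -0.14 without SN12C replicate 1. The LM1 array was the highest of the 5 at 10.47, which was 0.77 ± 0.30 above SN12C (limma adjusted p = 0.272).

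HMOX1 encodes heme oxygenase 1, which breaks heme down to biliverdin, carbon monoxide and iron and is induced by many stresses besides NRF2. Its only probe set read 8.56 and 8.81 on the LM2 arrays, against 11.72 and 10.48 on the SN12C arrays. All LM2 values lay below all SN12C values, and SN12C replicate 1 was the highest array. On the linear scale the LM2 signal was 5.34-fold lower than that of SN12C (limma adjusted p = 0.307). At least 1 log2 unit lower in LM2 were 1.26% of the genes tested, and HMOX1 was the only one of the 10. The size depends on the parental array: the difference was -3.04 log2 units against SN12C replicate 1 and -1.79 against replicate 2. Over all alternatives the difference ran from -3.04 to -1.79, both ends from fits without 1 of the SN12C arrays. Those fits take their spread from the LM2 pair alone, so their p-values for HMOX1 are not given.

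In LM1 the HMOX1 signal was 8.95, below both SN12C arrays and near the LM2 arrays. The difference from SN12C was -2.15 ± 0.61 log2 units (SE; limma adjusted p = 0.190), and that of LM2 from LM1 was -0.27 ± 0.61 (limma adjusted p = 0.957). The comparisons of LM2 and LM1 with SN12C share the SN12C arrays, so they are not independent of each other.

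The genes whose profile over the 5 arrays came closest to that of HMOX1 were taken by the root mean square distance between profiles centred on their means. They were SLC16A7, a monocarboxylate transporter, at 0.14 log2 units, ERRFI1, a feedback inhibitor of EGFR, at 0.18, SPP1 or osteopontin at 0.25, BEX2 at 0.26 and TNC or tenascin C at 0.27. ERRFI1 read 7.43 and 7.56 on the LM2 arrays, against 10.27 and 9.55 on the SN12C arrays, and 7.91 on the LM1 array. With 5 arrays this is a description of these profiles only.

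Among the glutathione genes, those for the 2 subunits of glutamate-cysteine ligase, the enzyme of the first and rate-limiting step of glutathione synthesis, differed in opposite directions. GCLC encodes the catalytic subunit. Its brightest probe set read 9.85 and 10.07 on the LM2 arrays, against 9.34 and 9.75 on the SN12C arrays. LM2 lay above SN12C, but the gap to the nearer SN12C array was smaller than the distance between the SN12C arrays (limma adjusted p = 0.559). The difference was 0.21 without SN12C replicate 1 and 0.62 without SN12C replicate 2. The brightest is of a type that can bind several transcripts. A dimmer GCLC probe set, not of that type, read 8.80 and 8.90 in LM2, against 8.50 and 8.72 in SN12C, a difference of 0.24. A further one stayed below the filter value on all 5 arrays and was not tested. LM1 read 9.83 on the brightest, 0.28 ± 0.24 above SN12C (limma adjusted p = 0.588).

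GCLM encodes the modifier subunit, which raises the activity of the catalytic one. Its brightest probe set read 10.79 and 10.72 on the LM2 arrays, against 10.87 and 11.45 on the SN12C arrays. Both LM2 values were lower, though SN12C replicate 1 lay only 0.11 above the LM2 mean, and the difference was -0.41 ± 0.24 (SE; limma adjusted p = 0.631). The other GCLM probe sets showed larger differences, with SN12C replicates closer and LM2 replicates farther apart than on the brightest. One read 6.77 and 6.49 in LM2, against 7.51 and 7.58 in SN12C, a difference of -0.92 ± 0.13. The other read 7.87 and 7.999 in LM2, against 8.55 and 8.87 in SN12C, a difference of -0.77 ± 0.15. In the fit on all 27739 probe sets their limma adjusted p values were 0.312 and 0.359. They differed in LM1: it read 6.74 on the first, near LM2, and 8.77 on the second, within the range of SN12C.

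SLC7A11 encodes xCT, the light chain of the transporter that takes up cystine for glutathione synthesis. Its brightest probe set read 9.67 and 9.50 on the LM2 arrays, against 11.16 and 9.78 on the SN12C arrays. LM2 was below SN12C on both arrays, and most of the distance came from SN12C replicate 1. The difference was -0.89 ± 0.55 log2 units (SE; limma adjusted p = 0.631), being -1.58 against SN12C replicate 1 and -0.20 against replicate 2. A second probe set behaved alike, with 9.11 and 9.12 in LM2, against 10.88 and 9.17 in SN12C, so that LM2 stood -1.76 and -0.06 from the SN12C arrays. The dimmest, of a type that can bind several transcripts, read 7.76 and 7.57 in LM2, against 7.44 and 7.57 in SN12C. The LM1 array read 8.69, 9.29 and 6.84 on the same 3 probe sets. On the brightest it was 1.79 log2 units below the SN12C mean (limma adjusted p = 0.258). LM1 was thus the lowest array on the brightest and the dimmest probe set and lay within the SN12C range on the other one.

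**Figure D2:**
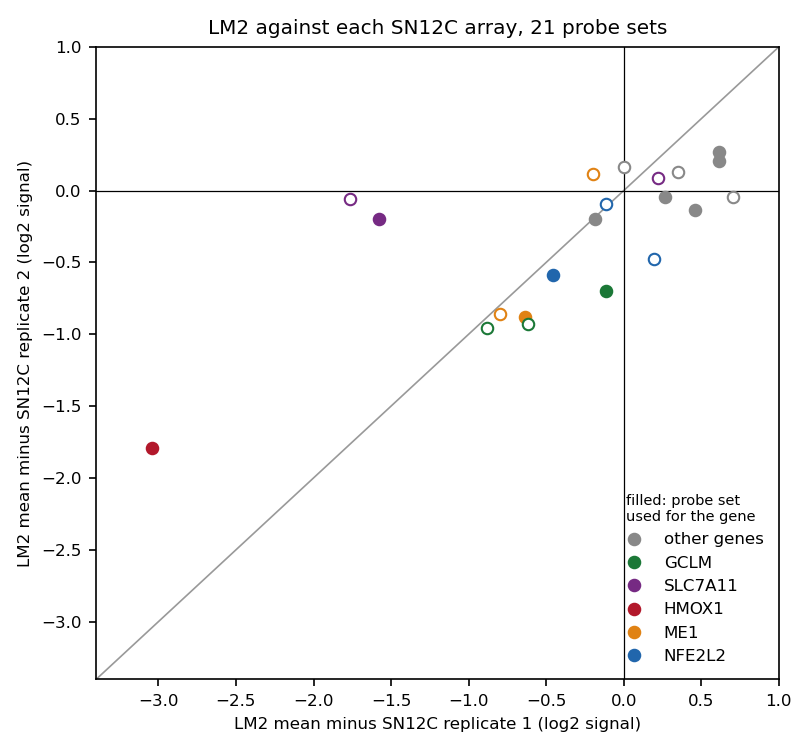
Mean log2 signal of LM2 minus that of SN12C replicate 1 (horizontal) and minus that of SN12C replicate 2 (vertical) for the 21 probe sets tested, 1 point each, with the diagonal of equal differences. HMOX1 lies at -3.04 and -1.79, the brightest SLC7A11 probe set at -1.58 and -0.20, and the dimmer of the ME1 probe sets that were lower in LM2, at -0.80 and -0.86, close to the diagonal.

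TXNRD1, cytosolic thioredoxin reductase, had the tightest replicates of the 10 genes. It read 13.42 and 13.43 on the LM2 arrays, against 13.61 and 13.62 on the SN12C arrays. The groups did not overlap, at a small difference of -0.19 ± 0.07 log2 units (SE; limma adjusted p = 0.464). The LM1 array was lowest at 13.00, a difference of -0.62 ± 0.09 from SN12C (limma adjusted p = 0.103), and LM2 stood 0.42 ± 0.09 above LM1 (limma adjusted p = 0.197). A second TXNRD1 probe set lay below the filter value on all 5 arrays.

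NQO1, the quinone reductase often used as the marker of NRF2 activity, differed between LM2 and SN12C by less than the SN12C arrays differed from each other. Its brightest probe set read 12.77 and 12.81 on the LM2 arrays, against 12.52 and 12.84 on the SN12C arrays. The groups overlapped, with a difference of 0.11 ± 0.14 log2 units (SE; limma adjusted p = 0.718), which was -0.0427 without SN12C replicate 1. The other NQO1 probe sets overlapped too, at differences of 0.33 and 0.08. In LM1 the 3 probe sets read 12.71, 10.99 and 12.45, which are 0.03 and -0.12 from the SN12C means for the earlier ones and 0.65 above for the last. All 3 are of the type that can bind several transcripts.

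The remaining genes supply NADPH, which the glutathione and thioredoxin systems spend, or belong to the pentose phosphate pathway that makes it. ME1, cytosolic malic enzyme, read 8.31 and 8.78 on the LM2 arrays, against 9.18 and 9.43 on the SN12C arrays. Both LM2 arrays were lower, and the LM2 pair was farther apart than the SN12C pair. The difference was -0.76 ± 0.22 log2 units (SE; limma adjusted p = 0.394). These values come from a probe set of the type that can bind several transcripts. A second ME1 probe set, not of that type, gave 7.14 and 7.70 in LM2, against 8.22 and 8.28 in SN12C, a difference of -0.83 ± 0.23. The dimmest, near the filter value, read 6.37 on both LM2 arrays, against 6.56 and 6.25 in SN12C. LM1 read 8.93 on the brightest probe set, between LM2 and SN12C, at -0.38 ± 0.27 from SN12C (limma adjusted p = 0.514).

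TALDO1, transaldolase of the non-oxidative pentose phosphate branch, read 13.18 and 13.31 on the LM2 arrays, against 12.63 and 12.98 on the SN12C arrays. LM2 was higher on both arrays, with a difference of 0.44 ± 0.16 log2 units (SE; limma adjusted p = 0.462), which was 0.27 without SN12C replicate 1. The only TALDO1 probe set is of the type that can bind several transcripts. LM1 was the highest array at 13.58, 0.77 ± 0.20 above SN12C (limma adjusted p = 0.171).

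**Figure D3:**
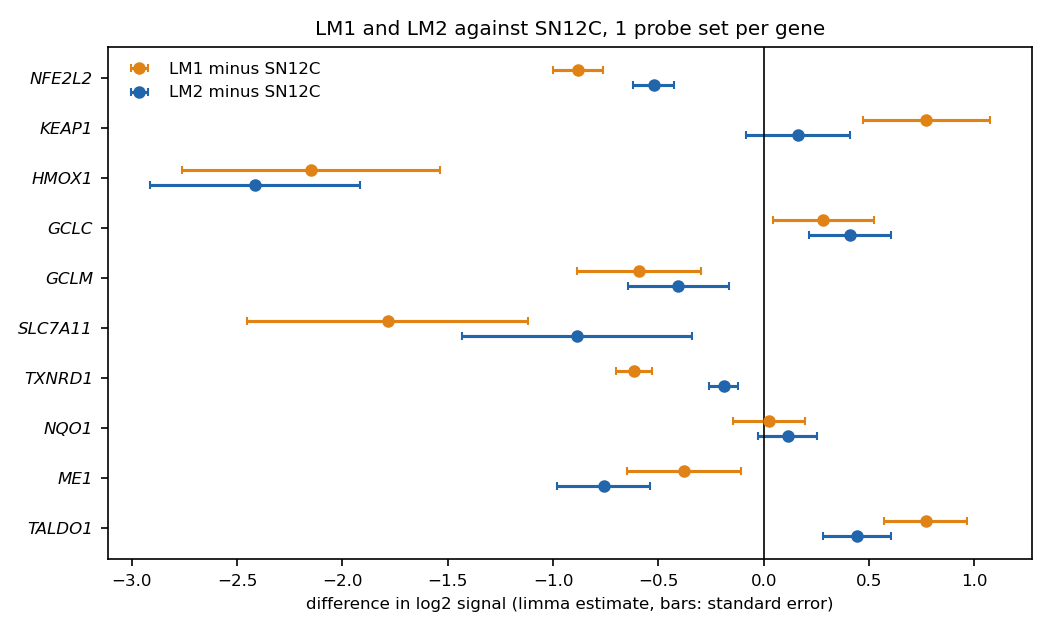
Differences in log2 signal of LM1 (orange) and LM2 (blue) from SN12C for the 10 genes, 1 probe set per gene, as limma estimates with standard errors. HMOX1 lies at -2.15 in LM1 and -2.42 in LM2, and TALDO1 and GCLC lie above 0 in both lines.

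Against SN12C, the LM1 array was lower for 6 of the 10 genes, and these lay below both SN12C arrays, while KEAP1, GCLC and TALDO1 lay above both. Over all genes tested LM1 lay outside the SN12C range for 66%, with 20.8% below and 45.2% above. The median difference of the 10 genes was -0.48, against 0.09 over all genes, and it was -0.28 without SN12C replicate 2. In limma 0 of the 10 passed an adjusted p of 0.05, as did 0% of all genes (lowest adjusted p = 0.0964). At an unadjusted p under 0.05 were NFE2L2, HMOX1 and TXNRD1 on the lower side and TALDO1 on the higher, 4 of 10, where 22.1% of all genes tested had such a p, 4.96% lower and 17.2% higher. LM1 has 1 array, so its spread is assumed to be that of the other lines. The array with the large 3' to 5' difference of beta-actin is the LM1 array, whose probe sets of NFE2L2, SLC7A11, GCLM and NQO1 disagreed within a gene. Probe sets also disagreed in LM2 against SN12C, at 0.16, -0.89 and -0.91 for SLC7A11 and -0.52, -0.14 and -0.10 for NFE2L2. The part of RNA quality in these values was not tested. LM2 against LM1 gave 0% of genes past an adjusted p of 0.05 (lowest adjusted p = 0.178), and 2 of the 10 genes, NFE2L2 and TXNRD1, were higher in LM2 at an unadjusted p under 0.05. Of all genes tested 17% had such a p and 4.23% were higher with it.

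The count of the 10 genes at an unadjusted p under 0.05 changed when single arrays were left out. Such fits take their spread from the pair that remains, the LM2 pair or the SN12C pair. The share over all genes was not taken for these fits, so their counts are not given. The median difference of the 10 genes in LM2 against SN12C was -0.20 without SN12C replicate 1 and -0.15 without SN12C replicate 2. It was -0.31 without LM2 replicate 1 and -0.28 without LM2 replicate 2.

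A wider list of 101 genes of the same pathway and related redox genes, none of them among the 10, showed no common direction in LM2. Of these, 88 were tested, 42 of them lower and 46 higher in LM2 than in SN12C, with a median difference of 0.02, against 0.03 over all genes tested. At an unadjusted p under 0.05 were 7 lower and 9 higher genes, where 4.6% and 6.96% of all genes were, and 0 passed an adjusted p of 0.05. The genes below are the 3 with the largest differences of each role.

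Of 12 regulators tested, MAFF, a small MAF partner of NRF2, was at -0.997 and SQSTM1, the p62 autophagy adaptor that competes with NRF2 for KEAP1, at -0.86 log2 units in LM2, both with an unadjusted p under 0.05. PALB2, a DNA repair protein that also binds KEAP1, was higher at 0.67, also with such a p, and stood at 0.41 without SN12C replicate 1. SQSTM1 read 11.57 and 11.63 on the LM2 arrays, against 12.65 and 12.27 on the SN12C arrays, and 11.64 in LM1. Both metastatic lines lay below SN12C there, but without probe sets of the types that bind several transcripts SQSTM1 stood at 0.23.

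Of 9 heme and iron genes, ABCB6, a porphyrin transporter, was lower at -1.06, with 6.99 and 6.95 on the LM2 arrays, against 7.81 and 8.26 on the SN12C arrays. FLVCR1, a heme exporter, stood at 0.74 and HMOX2, the constitutive heme oxygenase, at 0.48 without an unadjusted p under 0.05. For FLVCR1 the value was 0.12 without SN12C replicate 1 and 1.36 without SN12C replicate 2, and for HMOX2 it was -7e-04 and 0.96. HMOX2 read 11.25 and 11.20 in LM2, against 10.26 and 11.23 in SN12C, so that heme oxygenase 2 overlapped where heme oxygenase 1 did not. The HMOX2 probe set is of a type that can bind several transcripts, and without such types HMOX2 stood at 0.10.

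Of 19 glutathione genes, MGST1, a membrane-bound glutathione transferase, had a difference of -2.07 ± 0.40 log2 units (SE; limma adjusted p = 0.292). It read 9.05 and 8.70 on the LM2 arrays, against 10.47 and 11.42 on the SN12C arrays, and 8.64 in LM1. Here SN12C replicate 2 was the higher parental array, unlike HMOX1. The MGST1 probe set is of a type that can bind several transcripts, and without such types MGST1 gave no value. The glutathione peroxidases GPX3 and GPX8 were at 0.78 and 0.72, both with an unadjusted p under 0.05, and GPX8 stood at 1.34 with its probe set of highest SD.

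Of the 12 thioredoxin genes 0 had an unadjusted p under 0.05, where 11.6% of all genes tested did. TXNIP, the thioredoxin inhibitor, had the largest difference at 1.10 ± 0.57 (SE), and it was 0.62 without SN12C replicate 1 and 0.56 without LM2 replicate 1. The peroxiredoxins PRDX4 and PRDX6 followed at 0.41 (0.22 without SN12C replicate 1) and 0.26. Of 11 NADPH genes, IDH2, the mitochondrial isocitrate dehydrogenase, stood at 1.22 and NNT, the mitochondrial transhydrogenase, at 0.81, both with an unadjusted p under 0.05, and MTHFD1 of folate metabolism at 0.65 (0.33 without SN12C replicate 1). IDH2 read 10.27 and 10.24 on the LM2 arrays, against 8.76 and 9.32 on the SN12C arrays, but this probe set is of a type that can bind several transcripts, and without that type IDH2 stood at 0.20.

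Of 16 detoxification genes, the carbonyl reductase CBR3 was at 1.44 ± 0.15 log2 units (SE; limma adjusted p = 0.225), with 9.42 and 9.30 on the LM2 arrays, against 7.76 and 8.07 on the SN12C arrays. LM1 read 10.46, the highest of the 5. Its relative CBR1 stood at 1.12, which was 0.37 without SN12C replicate 1 and 1.88 without SN12C replicate 2. UGDH, which makes UDP-glucuronate, was at -0.76 with an unadjusted p under 0.05. Among 9 other antioxidant genes, mitochondrial superoxide dismutase SOD2 was at -0.82 with an unadjusted p under 0.05, measured by 1 dim probe set because the other 4 of its 5 are assigned to a neighbouring transcript as well, and the methionine sulfoxide reductases MSRB1 and MSRB2 were at 0.79 each. Without SN12C replicate 1 they stood at 0.31 and 0.24, and without SN12C replicate 2 at 1.28 and 1.34.

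**Figure D4:**
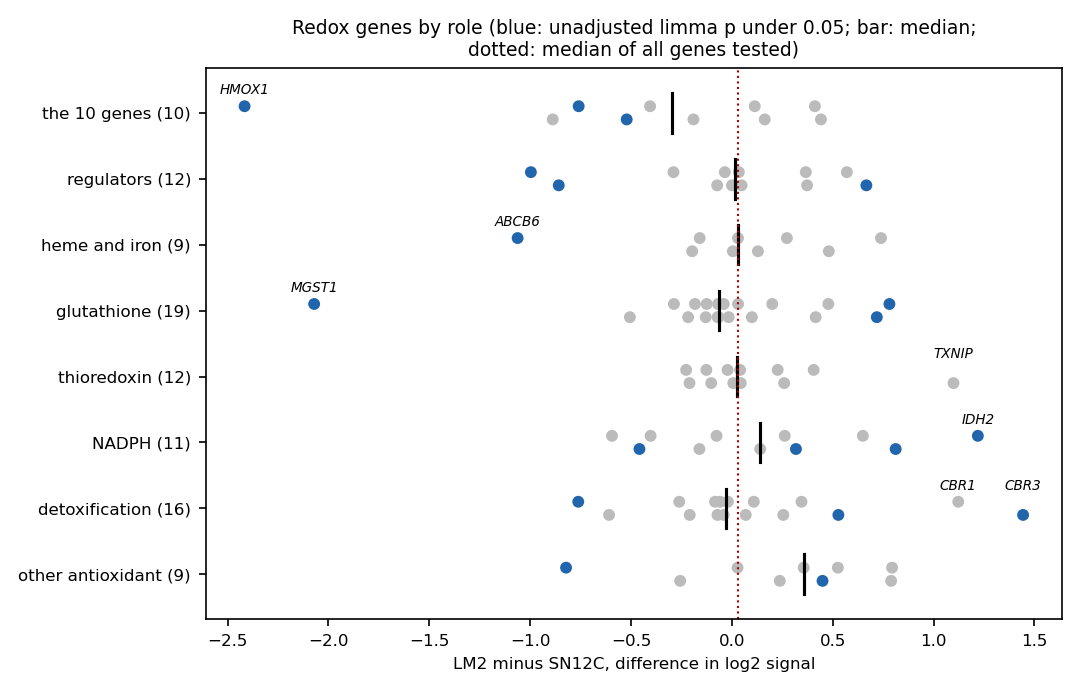
Differences in log2 signal, LM2 minus SN12C, for the 10 genes and 88 further redox genes by role, a point per gene, with the number tested in brackets. Blue points had an unadjusted limma p under 0.05, black bars are medians and the dotted line is the median of all genes tested, 0.03. The median of the 10 genes lies at -0.30 and that of the 9 other antioxidant genes at 0.36.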

How the data were processed

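The deposited values are log2 signals, made by the authors with RMA and Partek, per the submitters' processing notes, versions unstated. RMA quantile normalizes, so differences in total signal between arrays were largely removed before deposit. Array medians lay between 6.51 and 6.57. The SD over probe sets was 2.11 for SN12C replicate 1 and 2.22 to 2.25 for the other arrays, so the arrays were not made identical. The number of arrays limits the precision.

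Of 54675 probe sets the platform table lists 42898. Those with several genes (1801), unlisted ones (11777) and the 62 controls were not used. The brightest probe set stood for a gene. Testing required 2 arrays or more at or over the 40th percentile of all values (6.03), which 15024 genes met.

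The fit gave each line a mean, with all 5 arrays in limma 3.58.1 (R 4.3.3), 2 residual and 1.3 prior degrees of freedom, and Benjamini-Hochberg adjustment, and was tested on simulated data. Labels call the replicates biological without detail, so the p-values reflect only how far these arrays differ. The genes, lists and tests were chosen with earlier results of these data known. All 10 genes are named, with the 3 largest differences between LM2 and SN12C per role of the wider list (101 genes, 93 with a probe set) and the 5 genes closest to HMOX1. Alternatives changed the filter, probe set choice, scaling, eBayes options, tied genes and replicates, and added a replicate block. Figures used matplotlib 3.10.9.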

Additional observations from a re-analysis of the deposited data

Results flagged for a closer look

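In 10 of the 88 genes tested of the wider list the LM1 array and the LM2 arrays lay on opposite sides of both SN12C arrays, and in 0 of the 10 genes of the report; the share over all genes tested was 5.83%. The difference between the lines is given for the 3 of them that the report names. SOD2 read 6.71 and 6.88 in LM2, against 8.90 in LM1, with SN12C at 7.87 and 7.36, and LM2 minus LM1 was -2.10 log2 units (limma adjusted p = 0.178). Its value comes from 1 of 5 probe sets, the others being shared with another transcript. GPX3 read 9.27 and 9.09 in LM2, against 7.67 in LM1, with SN12C at 8.32 and 8.48, and LM2 minus LM1 was 1.51 (limma adjusted p = 0.178). NNT read 10.36 and 10.38 in LM2, against 8.91 in LM1, with SN12C at 9.33 and 9.79, and LM2 minus LM1 was 1.46 (limma adjusted p = 0.178). Each rests on 1 LM1 array, the one with a beta-actin 3' to 5' difference of 3.43 log2 units, whose part was not tested.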

How the results depend on the processing

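The number of genes past an adjusted p of 0.05 in limma was 0 in each comparison (1737, 3325 and 2555 at an unadjusted p under 0.05). With tied genes left out it was 2 for LM2 against SN12C. With 1 array left out it ran from 0 to 3824 for LM2 against SN12C, from 0 to 4823 for LM1 against SN12C and from 0 to 1273 for LM2 against LM1. The high counts came without SN12C replicate 2 (3824, 4823 and 1273) or replicate 1 (1979 for LM1 against SN12C, 1273 for LM2 against LM1), where the residual spread is that of the LM2 pair alone. Of the 10 genes, the number at an unadjusted p under 0.05 for LM2 against SN12C, 3, became 5 with quantile normalization and ran from 0 to 7 with 1 array left out. For LM1 against SN12C, 4, it ran from 2 to 6. For LM2 against LM1, 2, it was 1 with the 60th percentile filter, every probe set tested, centring, eBayes with trend or robust eBayes, 0 without tied genes, and 0 to 3 with 1 array left out. The median difference of the 10 genes ran from -0.31 to -0.15, from -0.56 to -0.28 and from 0.04 to 0.13 in the 3 comparisons with 1 array left out, and LM2 against SN12C gave -0.46 without _s_at and _x_at probe sets and -0.17 with the probe set of highest SD. Samples with the same replicate number are not known to share a source, and their deviations correlated at r = 0.0923 across genes. With the replicate block LM2 against SN12C gave 0 genes, 3 of the 10 genes and a median of -0.30.

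The sign turned in 10 cases, whose cause was not tested. In LM2 against SN12C, KEAP1 turned with quantile normalization (-0.0135) and ran from -0.14 to 0.46 with 1 array left out, NQO1 ran from -0.0427 to 0.27 and HMOX2 from -7e-04 to 0.96, the lowest values without SN12C replicate 1. SQSTM1 was 0.23 without probe sets of the _s_at and _x_at types. In LM1 against SN12C, NQO1 was -0.12 with the probe set of highest SD and -0.0171 with quantile normalization, and ran from -0.13 to 0.18 with 1 array left out. In LM2 against LM1, GCLC was -0.17 without _s_at and _x_at types and GCLM -0.11 with the probe set of highest SD. Genes with no other probe set type gave no value under that rule.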

Other observations

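In LM1 the wider list of redox genes had 40 genes lower and 48 higher than in SN12C, with a median of 0.08 log2 units, against 0.09 over all genes tested. At an unadjusted p under 0.05 were 9 lower and 14 higher, where 4.96% and 17.2% of all genes were. MGST1 at -2.30 and CBR3 at 2.55 had the largest negative and positive differences among these 88 genes. IDH2 stood at 1.48, GPX8 at 0.59 and SQSTM1 at -0.82, on the same side of SN12C as in LM2, with which LM1 shares the SN12C arrays. The probe sets of MGST1, IDH2 and SQSTM1 are of types that can bind several transcripts.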
